A study of Homo sapiens with 8 samples.

Results

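The 10 genes described here belong to the decision to copy DNA, from the first growth phase (G1) into DNA synthesis (S), and were followed by their rows in a table of RNA-seq read counts. They were listed by symbol, with earlier results of these data known. The list was CCND1, CCND3, CCNE1, CCNE2, CCNA2, CDK6, CDKN1B, CDKN2C, E2F1 and MYC, and all 10 were found among 23368 gene symbols. All 10 also passed the filter on low counts, which kept 13395 genes. The cells were MDA-MB231, an established line from a human triple-negative breast cancer, grown in DMEM with fetal calf serum. Every group was transfected with the reagent interferin and differed only in the siRNA, which was a control (siC) or 1 of 3 against ESRRA (siE1, siE2 and siE3). ESRRA encodes ERRα, an orphan nuclear receptor. Each siRNA had 2 libraries, 8 in all, and the labels do not say whether these were separate cultures. A p-value therefore reflects only the spread between libraries, and that spread may be technical. The hours after transfection and the siRNA sequences are not stated in the labels.

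In G1, D-type cyclins bind the kinases CDK4 and CDK6 and start to phosphorylate the retinoblastoma protein RB1, which holds E2F transcription factors in check. Freed E2F1 switches on cyclin E and the genes of DNA synthesis, cyclin E with CDK2 completes the phosphorylation of RB1, and cyclin A takes over in S phase. A pair of inhibitor families brakes this: the INK4 proteins (CDKN2C is p18) block CDK4 and CDK6, and the CIP/KIP proteins (CDKN1B is p27) block chiefly CDK2. MYC, bound to its partner MAX, drives growth genes and feeds the same switch.

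Library totals lay between 21835995 and 25880548 counts. The target ESRRA fell to 16.3%, 12.6% and 13.2% of its siC level with siE1, siE2 and siE3. Of the line's markers, VIM stood at 3165 to 4058 CPM (counts scaled to a common library size, with TMM factors) and CD44 at 604 to 828, while the 5 markers taken as low or lost in it summed to 54.8 to 70.9 CPM. Of these, ESR1, PGR and CDH1 had at most 0.137 CPM, GATA3 had 2.57 to 4.32 and ERBB2 52.0 to 67.1. The 5 blood markers summed to at most 0.813 CPM and 4 endothelial ones to at most 1.86. The 5 fibroblast markers summed to 6.21 to 7.49 CPM under siC and 8.31 to 13.4 under the ESRRA siRNAs, with the defining DCN and LUM listed at 0 counts in every library. COL1A1 (4.11 to 9.94 CPM over the 8 libraries) and PDGFRB (0.776 and 0.900 under siC, 1.99 to 4.36 otherwise) made up most of that sum. The part of this list in the results was not tested. A 0 in this table need not mean that a gene is silent, since EIF4A1, a translation factor that cells in general use, is also listed at 0 in all 8 libraries.

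The 10 genes did not move as a block. CCNE2 rose and CCNA2 fell with every siRNA, 2 of 10 called the same way by all 3, against 16.2% of all genes tested. CCND1, CDK6 and CDKN1B were called in opposite directions by different siRNAs, 3 of 10 against 10.7%. With siE1, CCND1, CCNE2, CDK6 and E2F1 rose and CCNE1, CCNA2 and CDKN1B fell, so 4 of 10 were higher (24.5% of all genes) and 3 lower (25.8%). With siE2, CCNE2 and CDKN1B rose and CCND1, CCND3, CCNE1, CCNA2, CDK6 and MYC fell, so 2 of 10 were higher (27.9% of all genes) and 6 lower (28.5%). With siE3, CCND1, CCNE2 and CDKN2C rose and CCNA2 and MYC fell, so 3 of 10 were higher (21.3%) and 2 lower (20.8%). A call is an adjusted p below 0.05 in edgeR's quasi-likelihood test, with Benjamini-Hochberg adjustment over all 13395 genes. In either direction 7, 8 and 5 of the 10 were called with siE1, siE2 and siE3, against 50.3%, 56.4% and 42.1% of all genes. All 10 were called by at least 1 siRNA (78.8% of all genes) and in at least 1 comparison between siRNAs (75.2%). Without a test, the siRNA and siC libraries did not overlap for 9 of the 10 with siE1 (74.7% of all genes), 8 with siE2 (78.3%) and 7 with siE3 (69.1%). Between siRNAs the libraries did not overlap for 10 in siE1 against siE2 (79%), 9 in siE1 against siE3 (73.2%) and 8 in siE2 against siE3 (73.1%).

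Most of these changes were modest. The 10 genes had median log2 fold changes of -0.10, -0.18 and 0.11 with siE1, siE2 and siE3, where all genes had -0.01, 0.01 and -0.00, and the members ranged from -0.65 (CCNE1, siE2) to 1.04 (CCNE2, siE1). Rises and falls cancel in these medians. Without regard to sign, the median log2 changes of the 10 genes were 0.245, 0.327 and 0.154 with siE1, siE2 and siE3. Those of all genes were 0.246, 0.287 and 0.208. When a change of at least 1.5-fold was also required, the calls left were CCNE2, CDK6 and E2F1 with siE1 (3 of 10), CCNE1 with siE2 (1) and CCNE2 with siE3 (1). Of all 13395 genes, 1974, 2408 and 1335 were called at this limit with siE1, siE2 and siE3.

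**Figure D1:**
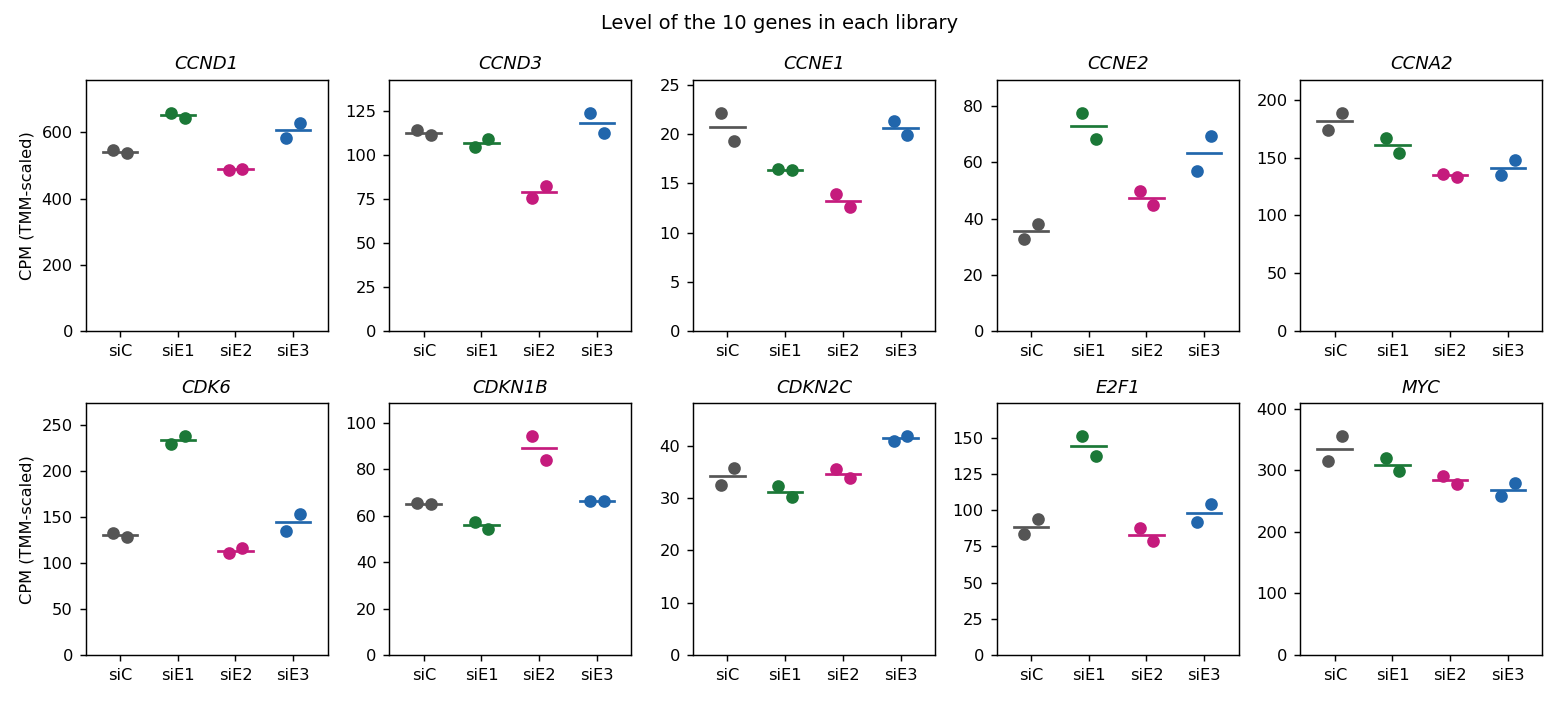
Level of each of the 10 genes in the 8 libraries, in CPM scaled by TMM (vertical axes from 0, a scale per gene); points are the 2 libraries of an siRNA and the line is their mean. CCNE2 was above both siC libraries in all 6 ESRRA siRNA libraries and CCNA2 below them, while CDK6 and E2F1 stood apart in the siE1 libraries and CDKN1B in the siE2 libraries.

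**Figure D2:**
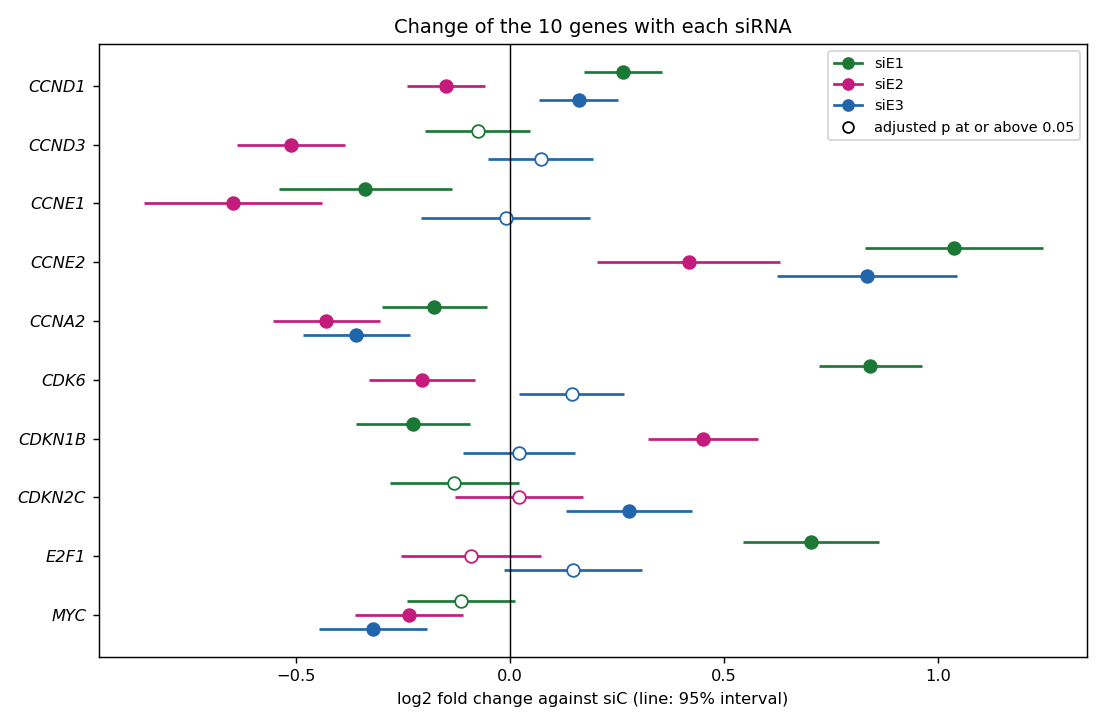
Log2 fold change against siC for each gene (rows) and siRNA (colours), with 95% intervals; filled points had an edgeR adjusted p below 0.05 and open points did not. The siE1 and siE2 intervals lay on opposite sides of 0 for CCND1, CDK6 and CDKN1B.

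Promoters are shown for 4 genes whose patterns the results turn on: E2F1 and CDK6, with their highest levels under siE1, CDKN1B, highest under siE2, and CCNA2, lower with all 3. Each window holds 250 bases before and 50 after a start in RefSeq (GRCh38.p14, not the hg19 build named for the counts), read 5′ to 3′ on the gene's strand. The search covered 12 RefSeq windows, of 7 of the 10 genes. Windows of CCND1, CCNE2 and MYC were not included, so the matches say nothing of these 3 genes. Capitals mark exact matches on either strand to the E2F words TTTCGCGC, TTTGGCGC, TTTCCCGC and GGCGGGAA, the CHR words TTTGAA and TTCGAA, the E-box CACGTG, the ERR element TCAAGGTCA or TNAAGGTCA, and the SP1 box GGGCGG. The first ERR word is a case of the second, and GGGCGG can share letters with GGCGGGAA.
E2F1, chr20:33686336-33686635, minus strand: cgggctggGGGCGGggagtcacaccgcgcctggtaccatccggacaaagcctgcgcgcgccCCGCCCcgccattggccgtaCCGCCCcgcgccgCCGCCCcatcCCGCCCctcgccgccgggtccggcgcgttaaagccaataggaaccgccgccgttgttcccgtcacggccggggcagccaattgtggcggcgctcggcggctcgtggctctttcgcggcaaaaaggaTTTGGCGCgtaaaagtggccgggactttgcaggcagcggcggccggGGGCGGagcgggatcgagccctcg
CDK6, chr7:92836524-92836823, minus strand, the first of 2 windows: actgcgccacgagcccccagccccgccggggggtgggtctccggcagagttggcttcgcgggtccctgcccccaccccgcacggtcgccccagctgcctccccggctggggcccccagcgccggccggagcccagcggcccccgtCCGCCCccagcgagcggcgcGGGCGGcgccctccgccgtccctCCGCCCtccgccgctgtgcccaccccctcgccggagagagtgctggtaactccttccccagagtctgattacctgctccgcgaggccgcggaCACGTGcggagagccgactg
CDKN1B, chr12:12717118-12717417, plus strand: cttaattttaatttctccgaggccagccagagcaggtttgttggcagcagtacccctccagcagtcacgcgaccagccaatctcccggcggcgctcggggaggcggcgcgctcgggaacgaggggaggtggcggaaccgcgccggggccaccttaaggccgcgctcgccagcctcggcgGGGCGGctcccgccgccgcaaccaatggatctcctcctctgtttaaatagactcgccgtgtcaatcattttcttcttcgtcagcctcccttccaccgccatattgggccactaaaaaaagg
CCNA2, chr4:121823834-121824133, minus strand: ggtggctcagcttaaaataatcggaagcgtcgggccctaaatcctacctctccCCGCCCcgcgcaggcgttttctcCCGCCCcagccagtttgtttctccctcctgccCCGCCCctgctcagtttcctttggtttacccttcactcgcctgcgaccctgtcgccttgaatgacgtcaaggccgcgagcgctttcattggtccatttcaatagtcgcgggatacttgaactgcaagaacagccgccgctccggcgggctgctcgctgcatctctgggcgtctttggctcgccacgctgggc

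The E2F1 window held 1 E2F word, TTTGGCGC, at bases 231 to 238 counted from its 5′ end, and the only other E2F word in the 12 windows was GGCGGGAA in 1 of the 3 CDKN2C windows. Any of the 4 E2F words was present in 5.01% of 34943 promoter windows of the same length. CACGTG, the letters that MYC with MAX binds, was in 3 of the 12 windows (the first of CDK6 and 2 of CDKN2C) and in 7.23% of all. SP1 boxes were in 9 of the 12 windows, with 7 in that of CCNE1, against 44.9% of all windows. The letters G and C made up 46.3% to 81.0% of these windows, with CCNE1 the highest, and a median of 58.7% over all windows. The part of this in the count of SP1 boxes was not tested, and some of the 12 windows belong to the same gene. No ERR element and no CHR word was found in the 12 windows, where 0.956% and 16.4% of all windows had one, which says only that these letters are not in these stretches. Words 1 letter off were not searched, such as cttgaa in the CCNA2 window and tttcgcgg in that of E2F1. The matches therefore do not show that a gene lacks such a site.

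CCND1, the D-type cyclin that couples growth signals to CDK4 and CDK6, had the most counts of the 10 genes. It stood at 547 and 538 CPM under siC, 660 and 642 under siE1, 486 and 491 under siE2, and 584 and 628 under siE3. Both siE1 and both siE3 libraries were above the siC pair and both siE2 libraries below it. The log2 fold change was 0.26 for siE1 (SE 0.0429, edgeR adjusted p = 1.1e-04), -0.15 for siE2 (SE 0.0431, edgeR adjusted p = 0.0077) and 0.16 for siE3 (SE 0.0430, edgeR adjusted p = 0.0072). The siE3 call was lost without siC replicate 2 (edgeR adjusted p = 0.058) and without siE3 replicate 2 (0.063), in a range of 5.2e-04 to 0.063 over 17 alternatives. Between siRNAs, CCND1 under siE1 exceeded its siE2 level by 0.41 (SE 0.0430, edgeR adjusted p = 9.0e-07) and was lower under siE2 than under siE3, at -0.31 (SE 0.0430, edgeR adjusted p = 2.6e-05). The average of the 3 siRNAs, at 0.09 (edgeR adjusted p = 0.041), joins changes of both signs, and it was called in 7 of 16 alternatives only.

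CCND3, a second D-type cyclin, was lower with siE2 alone. Its values were 114 and 111 CPM under siC, 105 and 110 under siE1, 75.9 and 82.4 under siE2, and 124 and 113 under siE3. The siE3 libraries overlapped the siC pair, and the siE2 libraries were far below it. With siE2 the log2 fold change was -0.51 (SE 0.0589, edgeR adjusted p = 2.7e-06), against -0.08 with siE1 (95% interval -0.20 to 0.05) and 0.07 with siE3 (-0.05 to 0.19). The siE2 level differed from the siE1 level (siE1 higher by 0.44, edgeR adjusted p = 1.4e-05) and from the siE3 level (-0.58, SE 0.0588, edgeR adjusted p = 1.0e-06).

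CDK6, a kinase that the D-type cyclins activate, had its largest rise with siE1. Levels were 133 and 128 CPM under siC, 230 and 238 under siE1, 110 and 116 under siE2, and 135 and 153 under siE3. The siE1 pair was clear of all other libraries. CDK6 changed by 0.84 on the log2 scale with siE1 (SE 0.0566, edgeR adjusted p = 1.2e-08) and -0.21 with siE2 (SE 0.0581, edgeR adjusted p = 0.0069). For siE3 it was 0.14 (95% interval 0.02 to 0.27, edgeR adjusted p = 0.057). The siE2 call was lost without siC replicate 1 (edgeR adjusted p = 0.050) or siE2 replicate 1 (0.066), in a range of 7.4e-04 to 0.066. For siE3 the call was gained in 4 of 17 alternatives, with library size only (edgeR adjusted p = 0.047), without a filter (0.031), with the crossed block described in the closing section (0.015) and without siE3 replicate 1 (0.0039), in a range of 0.0039 to 0.53. The siE1 level exceeded the siE2 level by 1.05 (SE 0.0570, edgeR adjusted p = 8.2e-10) and the siE3 level by 0.70 (SE 0.0563, edgeR adjusted p = 1.0e-07).

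The E-type cyclins, which activate CDK2 at the entry to S phase, went opposite ways. CCNE1 stood at 22.2 and 19.3 CPM under siC, 16.4 and 16.3 under siE1, 13.9 and 12.6 under siE2, and 21.3 and 19.9 under siE3. The siE1 and siE2 libraries were below the siC pair, and the siE3 libraries lay within it. CCNE1 fell by 0.34 on the log2 scale with siE1 (SE 0.0945, edgeR adjusted p = 0.0076) and by 0.65 with siE2 (SE 0.0976, edgeR adjusted p = 4.1e-05). With siE3 it was at -0.01 (95% interval -0.21 to 0.19), and the siE2 level was below the siE3 level by a log2 difference of -0.64 (edgeR adjusted p = 6.8e-05). The siE1 call was lost without siC replicate 1 (-0.24, edgeR adjusted p = 0.10, in a range of 0.0011 to 0.10).

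CCNE2 was the member with the largest rise, and it rose with each siRNA. It went from 32.8 and 38.1 CPM under siC to 77.6 and 68.1 under siE1, 49.9 and 44.9 under siE2, and 57.0 and 69.3 under siE3. All 6 libraries with an ESRRA siRNA were above both siC libraries, as 30.5% of all genes were in either direction. Its rise was 1.04 on the log2 scale with siE1 (SE 0.0974, edgeR adjusted p = 4.5e-07), 0.42 with siE2 (SE 0.101, edgeR adjusted p = 0.0024) and 0.83 with siE3 (SE 0.0986, edgeR adjusted p = 6.8e-06). The rise with siE2 was smaller than with siE1 (siE1 higher by 0.62, edgeR adjusted p = 4.6e-05) and than with siE3 (-0.42, edgeR adjusted p = 0.0021). Between siE1 and siE3 the difference was 0.20 (95% interval 0.01 to 0.40, edgeR adjusted p = 0.082). Per length, the CCNE2 level over the CCNE1 level was 0.895 and 1.20 in the siC libraries, 2.86 and 2.53 under siE1, 2.17 and 2.17 under siE2, and 1.62 and 2.11 under siE3. Thus the paralog that had been about level with CCNE1 was the more abundant E-type mRNA in all 6 ESRRA siRNA libraries.

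CCNA2, the cyclin of S phase and G2, fell with each siRNA. Its levels were 174 and 189 CPM under siC, 167 and 154 under siE1, 136 and 134 under siE2, and 135 and 148 under siE3. All 6 libraries with an ESRRA siRNA were below both siC libraries. The log2 fold change was -0.18 with siE1 (SE 0.0577, edgeR adjusted p = 0.019), -0.43 with siE2 (SE 0.0583, edgeR adjusted p = 1.5e-05) and -0.36 with siE3 (SE 0.0582, edgeR adjusted p = 1.5e-04). The siE1 call was lost without siC replicate 2 (-0.12, edgeR adjusted p = 0.19) and without siE1 replicate 2 (-0.12, 0.19), in a range of 4.1e-04 to 0.19. The fall with siE1 was smaller than with siE2 (siE1 higher by 0.25, edgeR adjusted p = 0.0018) and siE3 (by 0.18, edgeR adjusted p = 0.018), and the siE3 difference was not called without siE1 replicate 1 (0.12, edgeR adjusted p = 0.19) or siE3 replicate 1 (0.11, 0.17), in a range of 3.4e-04 to 0.19.

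CDKN1B, whose product p27 binds and inhibits cyclin E with CDK2, was lower with siE1 and higher with siE2. Its levels were 65.3 and 65.2 CPM under siC, 57.2 and 54.4 under siE1, 94.3 and 84.1 under siE2, and 66.2 in both siE3 libraries. The siE1 pair lay below and the siE2 pair above all other libraries. Against siC, CDKN1B was at -0.23 (log2) with siE1 (SE 0.0622, edgeR adjusted p = 0.0067), 0.45 with siE2 (SE 0.0604, edgeR adjusted p = 1.3e-05) and 0.02 with siE3 (95% interval -0.11 to 0.15). The siE1 call was lost without siE1 replicate 2 (-0.19, edgeR adjusted p = 0.066, in a range of 4.8e-04 to 0.066). All 3 differences between siRNAs passed, at -0.68 for siE1 against siE2 (SE 0.0609, edgeR adjusted p = 1.9e-07), -0.25 for siE1 against siE3 (edgeR adjusted p = 0.0041) and 0.43 for siE2 against siE3 (edgeR adjusted p = 2.9e-05).

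CDKN2C, encoding the INK4 inhibitor p18, rose with siE3 alone. The values were 32.6 and 35.7 CPM under siC, 32.3 and 30.2 under siE1, 35.5 and 33.8 under siE2, and 41.0 and 41.8 under siE3. The siE3 pair was above every other library. The log2 fold change with siE3 was 0.28 (SE 0.0693, edgeR adjusted p = 0.0045), against -0.13 with siE1 (95% interval -0.28 to 0.02) and 0.02 with siE2 (-0.13 to 0.17). The siE3 call was lost without siC replicate 1 (0.21, edgeR adjusted p = 0.062, in a range of 2.1e-04 to 0.062). The siE3 level was above that of siE1 (-0.41, SE 0.0695, edgeR adjusted p = 1.9e-04) and that of siE2 (-0.26, SE 0.0690, edgeR adjusted p = 0.0060), the latter not called without siE2 replicate 2 (-0.22, edgeR adjusted p = 0.057, in a range of 3.9e-04 to 0.057).

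E2F1, the transcription factor that RB1 restrains, rose with siE1 alone. It stood at 83.4 and 93.9 CPM under siC, 151 and 138 under siE1, 87.8 and 78.6 under siE2, and 91.9 and 104 under siE3. The siE1 pair was above all other libraries, and the siE2 and siE3 pairs overlapped the siC pair. With siE1 the log2 fold change was 0.70 (SE 0.0743, edgeR adjusted p = 1.6e-06). It was -0.09 with siE2 (95% interval -0.26 to 0.07) and 0.15 with siE3 (-0.01 to 0.31, edgeR adjusted p = 0.13), and the siE3 value passed in 2 of 17 alternatives, without siE3 replicate 1 (0.24, edgeR adjusted p = 0.039) and with the crossed block (0.15, edgeR adjusted p = 0.0052), in a range of 0.0052 to 0.68. The siE1 level of E2F1 exceeded the siE2 level by 0.79 (SE 0.0746, edgeR adjusted p = 3.0e-07) and the siE3 level by 0.56 (SE 0.0738, edgeR adjusted p = 1.8e-05).

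MYC was lower with siE2 and siE3. It stood at 315 and 356 CPM under siC, 320 and 299 under siE1, 292 and 278 under siE2, and 258 and 279 under siE3. The siE1 pair overlapped the siC pair, whose 2 libraries differed by more than those of any other siRNA. The log2 fold change was -0.24 with siE2 (SE 0.0593, edgeR adjusted p = 0.0032) and -0.32 with siE3 (SE 0.0595, edgeR adjusted p = 4.7e-04). With siE1 it was -0.12 (95% interval -0.24 to 0.01, edgeR adjusted p = 0.12). The siE2 call was lost without siC replicate 2, the library with the most MYC (-0.15, edgeR adjusted p = 0.072, in a range of 3.1e-06 to 0.072). Without siC replicate 1 the siE1 value was -0.20 and passed (edgeR adjusted p = 0.017), as it did with the crossed block (-0.11, 0.0089), in a range of 0.0089 to 0.77. MYC under siE3 was below that under siE1 (siE1 higher by 0.21, SE 0.0595, edgeR adjusted p = 0.010), a call lost without siE1 replicate 1 (0.15, edgeR adjusted p = 0.10) or siE3 replicate 1 (0.15, 0.097), in a range of 2.8e-05 to 0.10.

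In the average of the 3 siRNAs 4 of 10 genes were higher (CCND1, CCNE2, CDK6 and E2F1) and 4 lower (CCND3, CCNE1, CCNA2 and MYC), against 23.4% and 27.7% of all genes (51.1% in either direction). Without siC replicate 1 this total of 8 dropped to 4, with CCNE2 and CDK6 higher and CCNA2 and MYC lower, and MYC lost its call without siC replicate 2 (-0.13, edgeR adjusted p = 0.072). The comparisons between siRNAs gave 8 calls each among the 10 genes, where 57.1% (siE1 against siE2), 48.7% (siE1 against siE3) and 48.5% (siE2 against siE3) of all genes were called. In siE1 against siE2, 7 of 10 were higher under siE1 (28.5% of all genes) and CDKN1B alone was lower (28.6%). In siE2 against siE3, 7 of 10 were lower under siE2 (25% of all genes) and CDKN1B alone was higher (23.4%). In siE1 against siE3, 4 of 10 were higher (23.3%) and 4 lower (25.4%), and that total of 8 was 5 without siE1 replicate 1 and 4 without siE3 replicate 1. In the authors' deposited table, whose folds and adjusted p-values compare each siRNA with siC, 6, 8 and 4 of the 10 had an adjusted p below 0.05 with siE1, siE2 and siE3. All of these were also called here with the same sign, from the same libraries, so the 2 sets of calls are not independent. The share of all genes below 0.05 in the authors' columns was not counted. The calls made here and not in the authors' deposited table were CCNA2 with siE1 (authors' adjusted p = 0.0920) and CCND1 with siE3 (authors' adjusted p = 0.0528).

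Levels of different genes were compared per kilobase of merged exons of their protein-coding transcripts (GENCODE 29). Under siC the order ran from CCND1 (123 ± 1.39 CPM per kilobase, SD, n = 2) and MYC (112 ± 9.65) to CCNA2 (64.8 ± 3.86), E2F1 (35.4 ± 2.95), CCND3 (28.6 ± 0.549) and CDKN1B (24.6 ± 0.026). Below these came CDK6 (11.1 ± 0.291), CCNE2 (10.3 ± 1.11), CDKN2C (10.3 ± 0.662) and CCNE1 (9.98 ± 0.987). The last 4 lay within about their SDs of each other, and CCND1 and MYC differed by little more than the SD of MYC. By the length of the principal transcript MYC was at 246 and CCND1 at 126, so their order turns with the transcript assumed, and CCND3 (54.1) passed E2F1 (35.4). Among relatives under siC, CDK4 (128 ± 3.15) was far above CDK6, and the third D-type cyclin CCND2 was at 0.748 ± 0.0672. CDKN2A and CDKN2B, neighbouring INK4 genes in a locus this line is known to lack, were listed at 0 counts in all 8 libraries, as was EIF4A1. The CDK6 level over the CDK4 level, per length, was 0.0903 and 0.0840 under siC, 0.143 and 0.148 under siE1, 0.0748 and 0.0785 under siE2, and 0.106 and 0.115 under siE3.

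**Figure D3:**
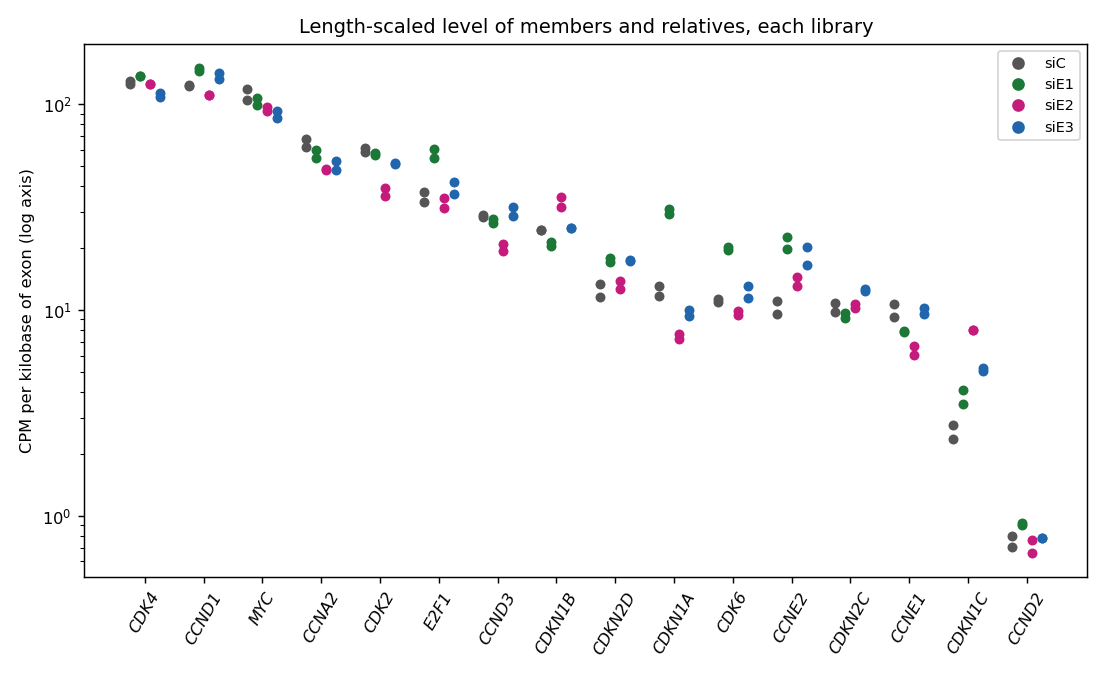
CPM per kilobase of exon (log axis) of the 10 genes and 6 relatives in each of the 8 libraries, sorted by the siC mean; colours mark the siRNA. CDK4, CCND1 and MYC stood at the top under siC, at 128, 123 and 112, and CCND2 at the bottom, at 0.748.

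Among the other CDK inhibitors 3 were measured above the filter. CDKN1A, encoding p21, went from 29.3 and 32.8 CPM under siC to 77.3 and 73.6 under siE1, 19.2 and 18.1 under siE2, and 23.5 and 25.1 under siE3. It thus rose with siE1 (log2 1.28, SE 0.0694, edgeR adjusted p = 1.2e-09) and fell with siE2 (-0.73, edgeR adjusted p = 1.4e-06) and siE3 (-0.35, edgeR adjusted p = 0.0017), the reverse of the signs of CDKN1B under siE1 and siE2. CDKN1C, encoding p57, rose with all 3, by 0.58, 1.65 and 1.02, from 5.34 and 4.58 CPM under siC to at most 15.6 under siE2 (edgeR adjusted p = 0.0021, 2.6e-08 and 1.5e-05). CDKN2D, encoding p19 of the INK4 family, rose with siE1 (0.49, edgeR adjusted p = 2.3e-04) and siE3 (0.49, edgeR adjusted p = 3.8e-04), and with siE2 it was at 0.09.

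Of 11 genes for the turnover of p27, cyclin E and their regulators, 2 rose and 5 fell with siE1, 0 rose and 7 fell with siE2, and 1 rose and 4 fell with siE3. Over all genes 24.5%, 27.9% and 21.3% were called higher with siE1, siE2 and siE3, and 25.8%, 28.5% and 20.8% lower. The 5 lower genes with siE1 were 1 without siC replicate 2, 3 without siE1 replicate 1 and 2 without siE1 replicate 2. The 2 higher ones were 0 without siC replicate 1, siC replicate 2 or siE1 replicate 1 and 1 without siE1 replicate 2 or siE2 replicate 2, and the 1 with siE3 was 0 without siC replicate 1 or siE3 replicate 1. SKP2, the ubiquitin ligase subunit that marks p27 for degradation, stood at 243 and 223 CPM under siC, 209 and 220 under siE1, 78.7 and 89.6 under siE2, and 171 and 166 under siE3. The siE2 libraries were far below all others. SKP2 fell by 1.47 on the log2 scale with siE2 (SE 0.0615, edgeR adjusted p = 8.0e-11) and by 0.46 with siE3 (SE 0.0588, edgeR adjusted p = 1.4e-05), and was at -0.12 with siE1 (edgeR adjusted p = 0.11, or 0.012 with the crossed block). Per length, CDKN1B over SKP2 was 0.389 and 0.422 under siC, 1.73 and 1.36 under siE2, and 0.357 to 0.576 in the siE1 and siE3 libraries. CKS2, a small partner of the CDKs, fell with each siRNA (-0.21, -0.30 and -0.24, edgeR adjusted p = 0.0023, 1.1e-04 and 0.0010).

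A list of 10 other cyclins, CDKs and activators held no called rise with any siRNA, and 3, 7 and 6 fell with siE1, siE2 and siE3, against 25.8%, 28.5% and 20.8% of all genes lower. The shares of all genes called higher were 24.5%, 27.9% and 21.3%. CDC25A, the phosphatase that activates CDK2, was at 107 and 115 CPM under siC, 109 and 96.3 under siE1, 37.1 and 34.2 under siE2, and 86.1 and 95.3 under siE3. It fell with siE2 (-1.64, SE 0.0747, edgeR adjusted p = 1.8e-10) and siE3 (-0.30, edgeR adjusted p = 0.0028). CDK2 itself went the same way, at -0.67 (edgeR adjusted p = 4.7e-08) and -0.22 (edgeR adjusted p = 0.0031), and at -0.07 with siE1 (edgeR adjusted p = 0.31). CCNH, a part of the kinase that activates CDKs, fell with all 3 (-0.49, -0.60 and -0.38, edgeR adjusted p = 5.8e-06, 5.1e-07 and 9.9e-05). CDK4 fell with siE3 (-0.20, edgeR adjusted p = 0.0013), while siE2 gave -0.02. With siE1 CDK4 was at 0.10 (edgeR adjusted p = 0.054) and was called higher in 7 of 17 alternatives, at edgeR adjusted p = 0.025 with library size only, 0.025 with the stricter filter, 0.031 with only the groups compared, 0.015 with the crossed block and 0.038 without siE3 replicate 1 or siE3 replicate 2, and at 0.048 in limma-voom. The absence of a rise in this list with siE1 thus rests on the setting.

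**Figure D4:**
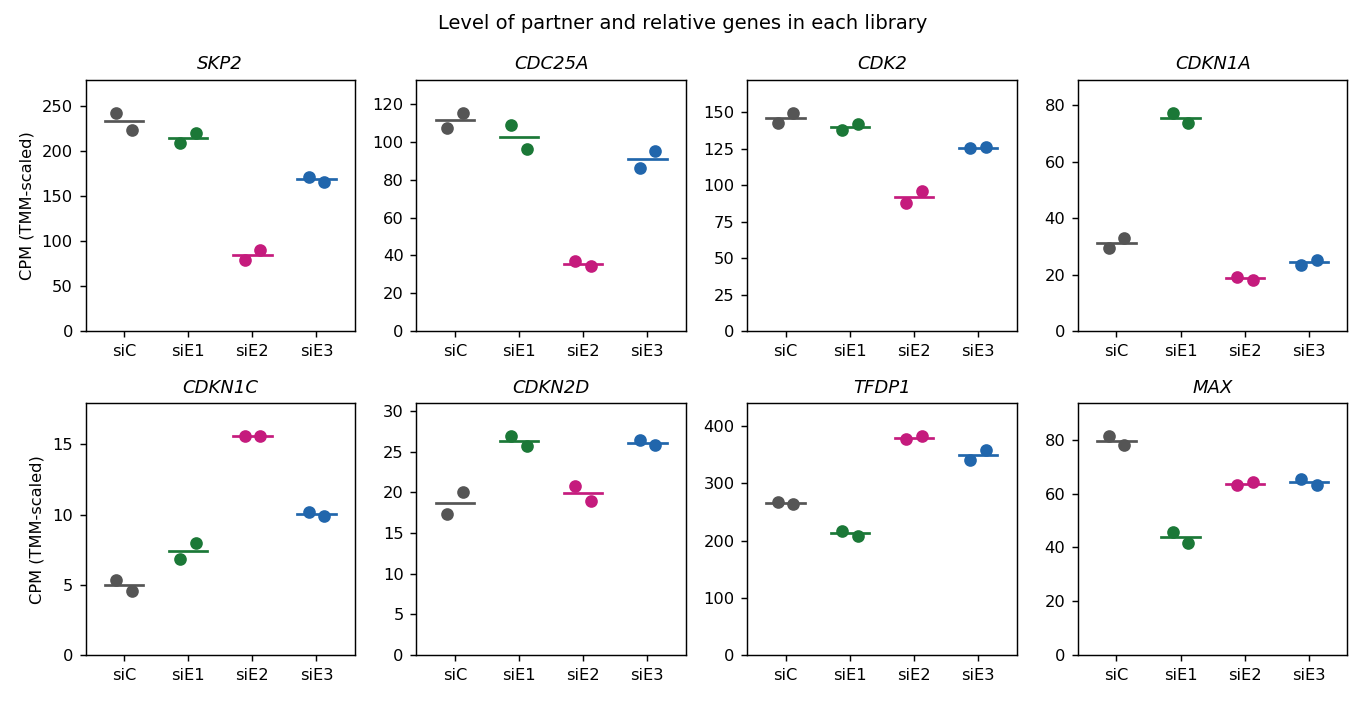
Level of 8 partner and relative genes in the 8 libraries, in CPM scaled by TMM (vertical axes from 0, a scale per gene); points are libraries and lines are means of 2. SKP2 and CDC25A were lowest under siE2, CDKN1A was highest and TFDP1 and MAX lowest under siE1.

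Of 12 pocket protein, E2F and DP genes 3 rose and 3 fell with siE1, 5 rose and 5 fell with siE2, and 4 rose and 5 fell with siE3, the last 5 being 3 without siE3 replicate 1. The siE1 counts are near the shares over all genes, 24.5% higher and 25.8% lower, which were 27.9% and 28.5% with siE2 and 21.3% and 20.8% with siE3. RB1 rose with siE1 (0.25, edgeR adjusted p = 6.1e-04), was at 0.07 with siE2 and fell with siE3 (-0.13, edgeR adjusted p = 0.044). That last call was lost in 7 of 17 alternatives, among them the fits without siC replicate 1 (-0.08, edgeR adjusted p = 0.31), siE2 replicate 1 (0.068), siE2 replicate 2 (0.060) or siE3 replicate 1 (0.24), with a replicate block (0.071), in the DESeq2 Wald test (adjusted p = 0.067) and with only the groups compared (0.073). E2F2, an activator like E2F1, fell with siE2 (-1.04, edgeR adjusted p = 4.5e-06) and siE3 (-0.80, edgeR adjusted p = 8.7e-05) and was at -0.07 with siE1, where E2F1 rose. E2F4, a repressor form, fell with each siRNA (-0.19, -0.35 and -0.29), the siE1 call being lost without siE1 replicate 1 (-0.14, edgeR adjusted p = 0.064). E2F5, another repressor form, rose with each (0.35, 0.91 and 0.62, edgeR adjusted p = 0.014, 2.9e-06 and 2.5e-04), and its siE1 call was lost without siC replicate 2 (0.062), siC replicate 1 (0.050) or siE1 replicate 2 (0.18). TFDP1, the dimer partner of E2F proteins, was singled out after its values had been seen: it fell with siE1 (-0.32, edgeR adjusted p = 1.9e-05) and rose with siE2 (0.52, edgeR adjusted p = 8.6e-08) and siE3 (0.39, edgeR adjusted p = 3.0e-06).

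Genes known to be switched on by E2F at the entry to S phase were lower in most cases with siE2. Of 24 tested, 4 rose and 11 fell with siE1, 0 rose and 21 fell with siE2, and 1 rose and 13 fell with siE3, with medians of -0.11, -0.43 and -0.19 beside -0.01, 0.01 and -0.00 over all genes. The shares of all genes called lower were 25.8%, 28.5% and 20.8%, and those called higher 24.5%, 27.9% and 21.3%. With siE1, E2F1 itself was 1.63-fold higher. The 11 lower genes with siE1 were 7 without siE1 replicate 2, the 4 higher ones were 2 without siC replicate 1 or siE1 replicate 1, and the 1 higher with siE3 was 0 without siC replicate 2. The 13 lower with siE3 ranged from 10 (without siC replicate 2) to 18 over 17 alternatives. MCM3, a part of the replicative helicase, fell with each siRNA (-0.43, -0.65 and -0.42), as did CDC6, which loads that helicase (-0.58, -0.65 and -0.24). The siE3 call of CDC6 was lost without siC replicate 2 (-0.18, edgeR adjusted p = 0.067) or siE3 replicate 1 (-0.16, edgeR adjusted p = 0.054). RRM2, which makes deoxyribonucleotides, fell with siE1 (-0.43, edgeR adjusted p = 2.9e-05) and siE2 (-0.61, edgeR adjusted p = 6.6e-07), and was at -0.13 with siE3 (edgeR adjusted p = 0.090). That siE3 value passed in 4 of 17 alternatives, without siC replicate 1 (-0.20, edgeR adjusted p = 0.033), without siE3 replicate 2 (-0.21, 0.022), without a filter (0.036) and with the crossed block (0.0037). It was nearer 0 without siE3 replicate 1 (-0.0613, edgeR adjusted p = 0.50) and without siC replicate 2 (edgeR adjusted p = 0.54). Of 8 MuvB and cell cycle switch genes 4, 6 and 4 fell and 0, 1 and 0 rose (25.8%, 28.5% and 20.8% of all genes fell), the 6 with siE2 being 3 without siC replicate 2 and the 1 being 2 without siC replicate 1, siE3 replicate 1 or siE3 replicate 2. LIN52, a MuvB subunit, fell by 1.72, 1.07 and 0.35 on the log2 scale, CCNF, which encodes a ubiquitin ligase subunit that binds E2F proteins, by 0.64, 0.42 and 0.34, and MYBL2, a partner of MuvB, by 0.36 with siE2 and 0.76 with siE3 (siE1 at -0.07).

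Partners and antagonists of MYC went both ways. Of 15 tested partners and antagonists 5 rose and 4 fell with siE1, 5 rose and 7 fell with siE2, and 5 rose and 4 fell with siE3, with MYCN listed at 0 counts in every library. The siE1 and siE3 counts are near the shares over all genes, 24.5% higher and 25.8% lower with siE1 and 21.3% and 20.8% with siE3, while siE2 gave 27.9% and 28.5%. The 7 lower genes with siE2 were 3 without siC replicate 1 and 4 without siE2 replicate 1, and the 5 higher with siE3 were 3 without siC replicate 2. MAX, the obligate partner of MYC, stood at 81.3 and 77.9 CPM under siC, 45.7 and 41.6 under siE1, 63.0 and 64.3 under siE2, and 65.4 and 63.3 under siE3. It fell with each siRNA (-0.87, -0.32 and -0.31, edgeR adjusted p = 1.8e-08, 2.3e-04 and 6.0e-04). A pair of the MXD proteins, which take MAX away from MYC, rose with each siRNA: MXD4 by 0.53, 1.55 and 0.40 (edgeR adjusted p = 2.7e-05, 2.2e-10 and 5.3e-04) and MXD1 by 0.98, 0.78 and 0.47 (edgeR adjusted p = 1.8e-06, 1.7e-05 and 0.0030). PIM1, a kinase that cooperates with MYC, rose as well (0.88, 0.43 and 0.50).

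Genes known as MYC targets showed falls and no called rise among 19 tested: 10 with siE1, 16 with siE2 and 16 with siE3, against 25.8%, 28.5% and 20.8% of all genes lower, with medians of -0.24, -0.53 and -0.23. The shares of all genes called higher were 24.5%, 27.9% and 21.3%. CDK4 belongs to this list and to that of the cyclins, CDKs and activators. The 10 with siE1 ranged from 9 to 15 and the 16 with siE3 from 12 to 17 over 17 alternatives. With siE1, 2 were called higher with library size only, the stricter filter, the crossed block, only the groups compared, and without siE3 replicate 1 or siE3 replicate 2, and 1 without a filter and in limma-voom. ODC1, the first enzyme of polyamine synthesis, went from 389 and 389 CPM under siC to 288 and 282 under siE1, 183 and 189 under siE2, and 234 and 252 under siE3 (-0.45, -1.07 and -0.68, edgeR adjusted p = 8.5e-07, 1.0e-10 and 1.7e-08). FBL, which methylates ribosomal RNA, was at -0.50, -0.58 and -0.23, POLR1B, a subunit of RNA polymerase I, at -0.41, -0.67 and -0.66, and NOLC1, of the nucleolus, at -0.49, -0.39 and -0.54, all called. Targets of E2F and of MYC also answer to other factors, so these lists do not measure the activity of either.

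**Figure D5:**
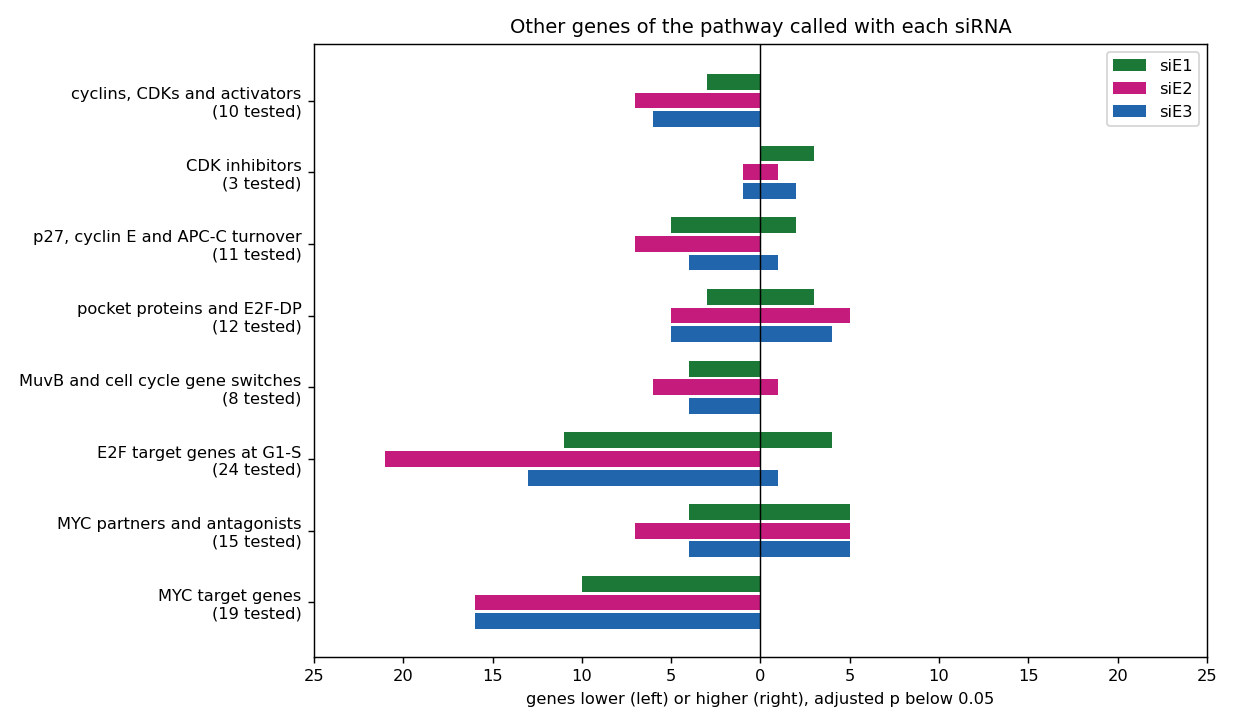
Number of genes called lower (left) and higher (right) with each siRNA in 8 lists of other pathway genes; the number tested stands beside each list. The E2F target list reached 21 of 24 lower under siE2, and no MYC target was called higher with any siRNA in the fit shown.

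The genes whose levels were most like those of 4 members over the 8 libraries, by Pearson's r of log2 CPM among 10501 other genes with a mean of at least 5 CPM, are given as a description, since the libraries fall into 4 groups of replicates and so many genes are compared. They were POLD3 (r = 0.994) and TFPI2 (0.989) for CCND1, SDHC (0.994) and C1QTNF6 (0.990) for CDKN1B, HBEGF (0.993) and DDHD2 (0.988) for E2F1, and PWP1 (0.984) and ANKRD10 (0.973) for MYC.

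The strand setting of the counting is not stated in the labels, and 4 of the 10 genes share exon sequence with a gene on the opposite strand in GENCODE 29. For CCNE2 these are an antisense gene with no value here and INTS8. INTS8 was at 0.24, -0.22 and 0.03 with siE1, siE2 and siE3, against 1.04, 0.42 and 0.83 for CCNE2. For CCNA2 it is EXOSC9, which fell with each siRNA as CCNA2 did (-0.36, -0.52 and -0.35), at 38.2 CPM under siC against 181 for CCNA2. CCND1 overlaps ORAOV1 (now LTO1), at 0.41, 0.00 and -0.16, and CCND3 a noncoding gene with no value here. The part of shared reads in these results was not tested.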

How the data were processed

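RNA-seq libraries of 8 samples were grouped by their titles (4 siRNAs, 2 libraries each). TopHat 1.3.3, HTSeq, DESeq and the build hg19 are named in the submitters' processing notes. The annotation, strand setting and filters were not given in the sources used here. Per the file headers, the authors deposited raw counts per gene symbol. The authors' deposited fold (a linear ratio) and adjusted p-value columns for each siRNA against siC were used only where named.

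The counts were filtered with filterByExpr, scaled by TMM (factors 0.980 to 1.02) and fitted in 1 model of all 8 libraries, a mean for each siRNA, in edgeR 4.0.16 (glmQLFit, glmQLFTest), which left 4 residual degrees of freedom. SE is the log2 fold change over the root of F, and intervals are at 95%. Scripts were tested on simulated data. Totals were 21835995 to 25880548 counts, and the number of libraries limits the precision. No pair of libraries agreed within sampling noise (chi-square per degree of freedom 3.11 to 5.12 within and 40.6 to 75.1 between siRNAs).

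Alternatives were DESeq2 size factors, library size only, no filter, a stricter filter (mean CPM of 1, total of 50 counts), limma-voom (limma 3.58.1), the Wald test of DESeq2 1.42.0, only the groups compared, a replicate block, leaving out each library, and a 1.5-fold limit. A crossed replicate block was added after seeing the data. Lengths and overlaps came from GENCODE 29 (GRCh38), promoters from RefSeq (GRCh38.p14). R was 4.3.3 and Python 3.11.15.

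The members and lists were chosen with earlier results of these data known. Named were the 10 members, up to 4 genes of each list with the smallest p in the average, CCND2, CDK4, CDK2, CDKN1A, RB1, SKP2 and MAX, ESRRA, and the 2 genes most like each of CCND1, CDKN1B, E2F1 and MYC. TFDP1 was named outside this rule, after its values had been seen.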

Additional observations from a re-analysis of the deposited data

Results flagged for a closer look

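Of the 10 members, 3 were called in opposite directions by different siRNAs against siC, where 10.7% of all genes were. For these 3 the siRNAs also differed when compared directly, and 75.2% of all genes were called in at least 1 such comparison. Against siC, the CDK6 call with siE2 was lost without siC replicate 1 or siE2 replicate 1. The CDKN1B call with siE1 was lost without siE1 replicate 2, and the CCND1 call with siE3 without siC replicate 2 or siE3 replicate 2. CCND1 under siE1 exceeded its siE2 level by 0.41 (log2, SE 0.0430, edgeR adjusted p = 9.0e-07) and lower under siE2 than under siE3 (-0.31, SE 0.0430, edgeR adjusted p = 2.6e-05). For CDK6 the siE1 level exceeded the siE2 level by 1.05 (SE 0.0570, edgeR adjusted p = 8.2e-10). CDKN1B was lower under siE1 than under siE2 (-0.68, SE 0.0609, edgeR adjusted p = 1.9e-07). ESRRA itself was at 10.4 CPM under siE1, 8.06 under siE2 and 8.43 under siE3. Its log2 difference was 0.37 for siE1 against siE2 (edgeR adjusted p = 0.0092) and 0.30 for siE1 against siE3 (edgeR adjusted p = 0.031). For siE2 against siE3 it was -0.06 (edgeR adjusted p = 0.67). The part of ESRRA in the differences of CCND1, CDK6 and CDKN1B was not tested.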

How the results depend on the processing

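Over 70 values (10 members, 7 comparisons) under each alternative, 1250 in all, 1135 kept their sign and their side of the threshold, 86 lost and 24 gained a call, and 5 turned sign. The 5 belonged to values that were not called: CDKN2C with siE2 ran from -0.0454 to 0.0863 and in the average from -0.00952 to 0.122, and CCNE1 with siE3 from -0.109 to 0.0922, when each library was left out. Of 1943 values for 29 partner genes, the fold limit aside, 9 turned sign, none of them called: when a library was left out, E2F2 with siE1 ran from -0.17 to 0.0336, CDKN2D with siE2 from -0.0109 to 0.200, CDK4 with siE2 from -0.0483 to 0.00265, CCND2 with siE2 from -0.179 to 0.0338 and with siE3 from -0.0259 to 0.157, and CDKN1A in the average from -0.017 to 0.147, and CDK4 with siE2 was at 0.0222 with library size only. The cause was not tested.

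With a fold limit of 1.5 the members called numbered 3, 1 and 1 with siE1, siE2 and siE3, 1 in the average, and 4, 1 and 1 for siE1 against siE2, siE1 against siE3 and siE2 against siE3. Among all 13395 genes the calls at this limit numbered 1974, 2408, 1335, 1277, 2556, 1827 and 1691 in the same order. By construction this limit drops smaller changes. Leaving out each library gave 4 to 8 calls in the average and 4 to 10 for siE1 against siE3, with fewer libraries in the fit. Under DESeq2 size factors, library size only, both other filters, the DESeq2 Wald test, limma-voom and only the groups compared, each count stayed within 1.5 times.

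The labels give equal replicate numbers to all 4 siRNAs. Deviations of equally numbered libraries from their group means were correlated over 6 pairs of groups. They gave 0.257 for siC with siE3, 0.364 for siE1 with siE2, and -0.39 to -0.337 for the other pairs. Equally numbered libraries thus did not deviate alike across all siRNAs. With 2 libraries in each group, these values cannot settle whether the samples were paired. With the replicate block the members called were 7, 8 and 5 with siE1, siE2 and siE3, 7 in the average and 8, 7 and 8 between siRNAs; the calls lost were CCND1 in the average (edgeR adjusted p = 0.068) and CCND3 for siE1 against siE3 (0.072). A crossed replicate block, with siC 1, siE3 1, siE1 2 and siE2 2 set against the others and chosen after seeing these correlations, gave 8, 8, 7, 8, 10, 10 and 9 calls in the same order. Of its 70 values 8 gained a call and 0 lost one. Because this block was set to follow the deviations, it takes up spread between libraries by construction. The calls it adds are therefore no further support. The number of libraries, 2 for each siRNA, limits what can be called.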
